A study of Homo sapiens with 4 samples.

Results

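The mRNAs of 10 amino acid transporters, SLC7A1, SLC7A5, SLC7A11, SLC3A2, SLC1A4, SLC1A5, SLC38A1, SLC38A2, SLC6A9 and SLC43A1, were compared between a Huh7 clone without TTP and BRF1 and a control clone. They were chosen by gene symbol from the 42169 genes of the deposited count table, all 10 had a row of their own, and all 10 passed the filter on low counts. Huh7 is an established line from a human liver tumour. The control libraries came from control cell clone #1 (genotype WT), and the libraries called DKO below came from Brf1/TTP DKO cell clone #18, with 2 libraries of each. ZFP36 encodes TTP and ZFP36L1 encodes BRF1, in this use butyrate response factor 1. These related proteins bind AU-rich elements of mRNAs and recruit the enzymes that shorten the poly(A) tail. All cells of both clones grew in serum-containing medium to which glutamine and non-essential amino acids had been added, and were treated with DMSO (3 h) followed by 5 µg/ml actinomycin D, an inhibitor of transcription, dissolved in DMSO (10 min), before harvest. Each genotype is 1 clone, so genotype and clone cannot be told apart, and the labels do not say whether the 2 libraries of each clone represent separate cultures. The p-values below thus measure no more than the library-to-library spread, possibly a technical one.

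Amino acids cross the plasma membrane through transporters of several solute carrier families. SLC7A1 is a facilitative carrier of the cationic amino acids arginine, lysine and ornithine. SLC3A2 encodes the heavy chain of CD98, a glycoprotein that carries no substrate itself but brings light chains to the cell surface. Its light chain SLC7A5 (LAT1) exchanges large neutral amino acids such as leucine, and its light chain SLC7A11 (xCT) exchanges cystine for glutamate and so feeds glutathione synthesis. SLC1A5 (ASCT2) and SLC1A4 (ASCT1) are sodium-dependent exchangers of small neutral amino acids, and SLC1A5 also takes glutamine. SLC38A1 and SLC38A2 (SNAT1 and SNAT2) import glutamine, alanine and other small neutral amino acids with sodium. SLC6A9 (GlyT1) imports glycine, and SLC43A1 (LAT3) is a uniporter of large neutral amino acids. Many of these genes are known targets of ATF4, the transcription factor made when eIF2 is phosphorylated by the kinase GCN2 during amino acid shortage. ATF4 binds amino acid response elements together with proteins of the C/EBP family. PPP1R15A, the gene named in the study's title, encodes GADD34, which returns eIF2 to its unphosphorylated form.

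Both kinds of regulatory sequence occur in these genes, and the matches are shown because they are the letters by which ATF4 and the ZFP36 proteins are known to recognise their targets. RefSeq promoter windows (GRCh38.p14, 250 bases before a start site and 50 from it on) were held for 9 of the 10 transporters, in 16 windows, and not for SLC7A11. The core of the amino acid response element, TGATGNAA on either strand, lay in 5 of the 16 windows, 1 each of SLC7A1, SLC1A4, SLC1A5, SLC3A2 and SLC38A1, against 3.62% of 35116 windows of all genes. In these lines, written 5′ to 3′ along the gene's own strand, capitals mark the core, which reads as its reverse complement in SLC1A4 and SLC3A2.
SLC7A1, chr13:29595664-29595691, minus strand: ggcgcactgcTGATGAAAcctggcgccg
SLC1A4, chr2:64989382-64989409, plus strand: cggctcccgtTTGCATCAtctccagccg
SLC1A5, chr19:46784894-46784921, minus strand: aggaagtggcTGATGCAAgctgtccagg
SLC3A2, chr11:62881726-62881748, plus strand: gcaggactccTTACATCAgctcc
SLC38A1, chr12:46266503-46266530, minus strand: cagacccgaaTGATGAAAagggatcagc

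The core in SLC7A1 began 7 bases after the start site, that in SLC1A4 7 bases before it and that in SLC38A1 4 bases before it. Of the 5 windows that of SLC7A1 lies at the outer end of the gene as GENCODE release 29 draws it, and the other 4 belong to start sites inside it. The core of the antioxidant response element, TGACNNNGC on either strand, lay in 4 of the 16 windows, 1 each of SLC7A1, SLC7A5, SLC3A2 and SLC1A5, against 13.3% of all windows, and none of these matches overlapped the other motif. A match is a description of the letters and shows no binding.

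The heptamer TATTTAT, the preferred site of the ZFP36 family, was searched on the sense strand of the longest 3′ UTR that GENCODE release 29 gives each gene (hg38). It occurred 5 times in SLC7A11, 4 times in SLC38A1, 2 times in SLC38A2 and 1 time each in SLC7A1 and SLC7A5. The 3′ UTRs of SLC3A2, SLC1A4, SLC1A5, SLC6A9 and SLC43A1 held none. At least 1 heptamer was present in 36.1% of the 11885 tested genes with a 3′ UTR. The median 3′ UTR had 1414 bases among those genes and 2820.5 bases among the 10, so the shares are not compared at equal length. The sites of the genes with the largest differences between the clones, SLC7A1 and SLC38A2, are shown with that of SLC7A5 and with the SLC7A11 site nearest the end of its 3′ UTR, with the heptamer in capitals.
SLC7A1, chr13:29510068-29510096, minus strand: ttttctcagggTATTTATtagtgtgtcca
SLC38A2, chr12:46358784-46358812, minus strand: aactgtaatgtTATTTATagaacaacatt
SLC38A2, chr12:46358738-46358766, minus strand: ctatttttcaaTATTTATgataatctatg
SLC7A5, chr16:87830273-87830301, minus strand: ggcaccatgttTATTTATttccagtggtc
SLC7A11, chr4:138164204-138164232, minus strand: aattttggttgTATTTATatgtattatac

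Counts on genes ranged from 9685798 to 16430228 per library, and the 10 transporters took 0.226% and 0.224% of them in the control clone against 0.293% and 0.301% in the DKO clone. Levels are given as CPM, the usual depth-scaled count, on library sizes adjusted by TMM factors, and 3 counts corresponded to at most 0.302 CPM. Of 12 hepatocyte and hepatoma markers all were expressed, with summed levels between 26819 and 29381 CPM, although within the list AFP fell (-1.13, edgeR adjusted p = 0.0159) and TTR rose (0.78, edgeR adjusted p = 0.0297). CD3E, HBB, VWF, CDH5 and KDR, markers of blood and endothelial cells, had no count in any library. The summed level of 4 endothelial markers, all of it PECAM1, was 7.44 and 6.27 CPM in the control and 26.6 and 29.1 CPM in the DKO libraries, and that of 6 blood markers, nearly all of it LYZ, 75.6 and 77.1 against 108 and 127 CPM. The summed level of 7 fibroblast markers was 93.1 and 145 against 141 and 142 CPM, and the part of any of these lists in the results was not tested. ZFP36 was at 29.3 and 23.8 CPM in the control libraries and at 37.1 and 36.8 CPM in the DKO libraries, and ZFP36L1 at 132, 111, 146 and 120 CPM in the same order. The labels do not give the kind of mutation, so these levels do not check the genotype.

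None of the 10 transporters passed the test between the clones, and all 10 fold changes were positive. Their median log2 fold change, DKO over control, was 0.29, where the median of all 13359 genes tested was 0.0015 and the middle 50% lay between -0.27 and 0.26. The test was edgeR's quasi-likelihood test with a Benjamini-Hochberg adjusted p under 0.05 over all genes, which called 5.37% of genes, 2.24% (299) as higher and 3.14% (419) as lower. Before adjustment, 3 of the 10 had an edgeR p under 0.05, all of them higher (SLC7A1, SLC38A2 and SLC38A1), where this held for 20.2% of all genes and 9.57% were higher. DESeq2 called 1 of the 10, SLC7A1, among 5.18% of all genes, and limma-voom called 0, among 5.25%. The DKO libraries exceeded the control libraries without overlap for 6 of the 10, SLC7A1, SLC38A2, SLC38A1, SLC1A5, SLC43A1 and SLC1A4, and below for 0. Over all genes tested the clones did not overlap for 49.8%, 25% with the DKO libraries above and 24.8% below. For a single gene, 2 libraries against 2 cannot reach an exact 2-sided permutation p under 0.333, and the edgeR values use a spread shared between genes. In bulk RNA these values cannot tell a shift in a part of the cells from a shift in all of them. With ERCC spike-in totals as library sizes the median gene shifted by -0.68, the calls became 20 higher and 315 lower, and all of the 10 transporters but SLC38A2 had negative values. Relative to that shifted median gene 9 of the 10 were still above it, SLC6A9 (-0.0082) being the exception, so directions below are relative to the median gene.

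**Figure D1:**
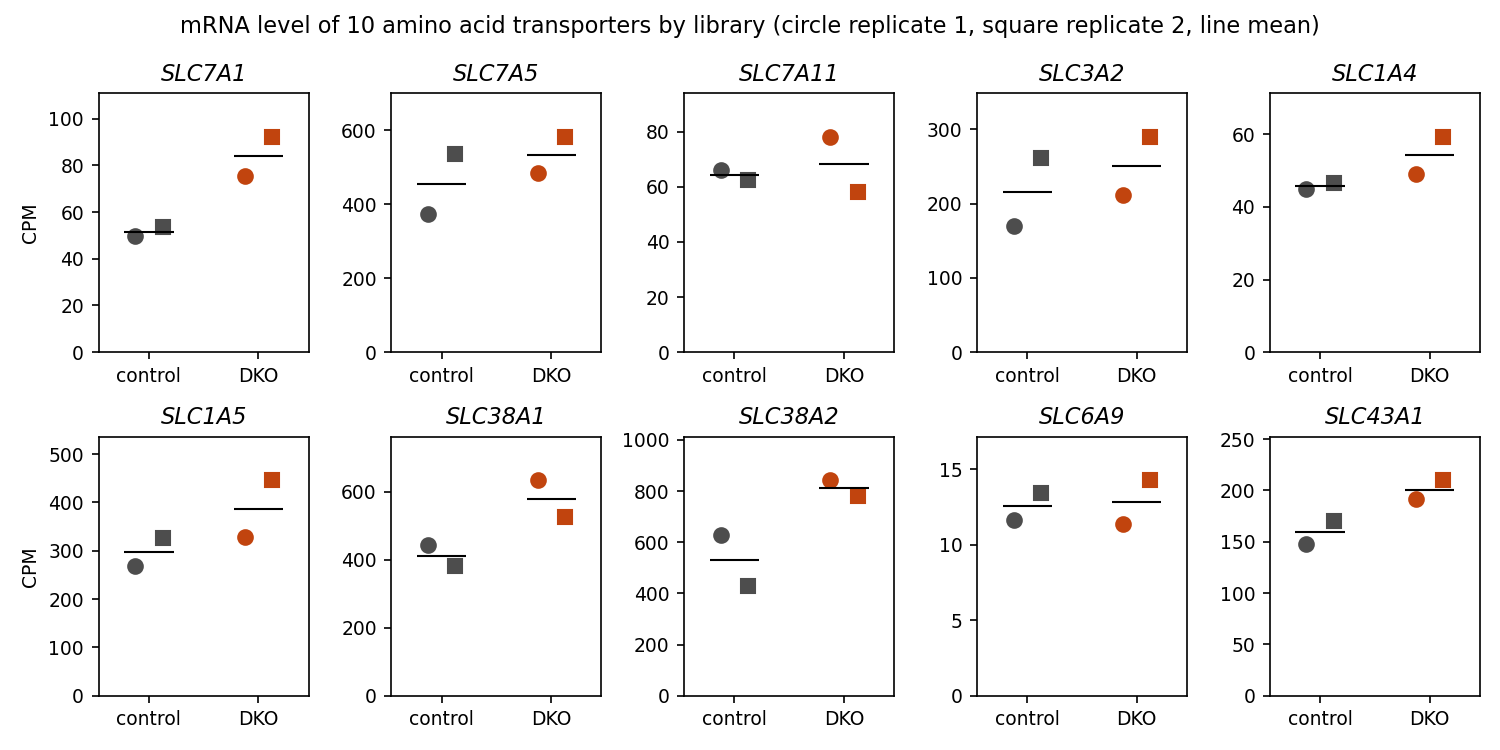
Level of each transporter mRNA in CPM (vertical axes, each from 0) in the 2 control libraries (grey) and the 2 DKO libraries (orange), with circles for replicate 1, squares for replicate 2 and a line at the mean. For SLC7A1 the DKO libraries sit at 75.4 and 92.4 CPM, above the control libraries at 49.7 and 53.6 CPM, whereas for SLC7A5, SLC3A2, SLC7A11 and SLC6A9 the libraries of the clones overlap.

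The cationic amino acid carrier SLC7A1 (chr13:29509410-29595688, minus strand, hg38) showed the largest fold change of the 10. Its level was 49.7 and 53.6 CPM in the control libraries and 75.4 and 92.4 CPM in the DKO libraries, from between 494 and 1493 counts per library. All DKO values exceeded all control values, and the control libraries lay closer together than the DKO libraries. The means were 51.6 ± 2.76 and 83.9 ± 12.0 CPM (SD, n = 2), which is 0.70 on the log2 scale (SE 0.20, 95% interval 0.28 to 1.12, 1.63-fold), and the edgeR adjusted p of 0.0512 missed the threshold. DESeq2 gave 0.70 with an adjusted p of 0.0348. The edgeR log2 fold change was 0.64 without control replicate 1 and 0.75 without control replicate 2. It was 0.84 without DKO replicate 1 and 0.54 without DKO replicate 2. SLC7A1 carries 1 amino acid response element core next to its start site and 1 TATTTAT heptamer, 670 bases before the end of a 3′ UTR of 5070 bases.

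The glutamine carriers of the SLC38 family followed. SLC38A2 (chr12:46358189-46372867, minus strand) was at 629 and 430 CPM in the control libraries and at 843 and 781 CPM in the DKO libraries. Both DKO libraries were higher than both control libraries, and here the control libraries were the more widely spread pair. The means were 529.6 ± 141 and 812 ± 43.4 CPM (SD, n = 2), which is 0.62 on the log2 scale (SE 0.23, 95% interval 0.13 to 1.11, edgeR adjusted p = 0.139). Without control replicate 1, whose level was the higher of the pair, the value was 0.91, and without control replicate 2 it was 0.36. SLC38A1 (chr12:46183063-46270017, minus strand) lies next to it on chromosome 12 and was at 442 and 382 CPM in the control libraries and at 635 and 526 CPM in the DKO libraries. The clones did not overlap for SLC38A1 either, and in both clones replicate 1 was the higher library, as for SLC38A2. Its log2 fold change was 0.49 (SE 0.21, 95% interval 0.05 to 0.94, edgeR adjusted p = 0.195), and it did not pass in any of the 4 fits without 1 library (0.36 to 0.62). The intervals of SLC7A1, SLC38A2 and SLC38A1 excluded 0 before adjustment for the number of genes.

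The CD98 heavy chain and its light chains showed smaller values. SLC3A2 (chr11:62856102-62888875, plus strand) was at 170 and 261 CPM in the control libraries and at 211 and 290.0 CPM in the DKO libraries. SLC7A5 (chr16:87830023-87869488, minus strand) was at 373 and 536 CPM in the control libraries and at 485 and 582 CPM in the DKO libraries. For both genes replicate 1 was the lower library in each clone, and the clones overlapped. The log2 fold changes were 0.22 for SLC3A2 (SE 0.23, 95% interval -0.28 to 0.71, edgeR adjusted p = 0.655) and 0.23 for SLC7A5 (SE 0.22, 95% interval -0.25 to 0.71, edgeR adjusted p = 0.613). Without control replicate 1 they were -0.06 and -0.0097, and without DKO replicate 2 SLC3A2 was at -0.03. DKO replicate 1 over control replicate 1 gave 0.31 for SLC3A2 and 0.38 for SLC7A5 on the log2 scale. Replicate 2 over replicate 2 gave 0.15 and 0.12. The sign thus depended on which libraries were compared, and the labels do not pair same-numbered libraries. The cystine transporter SLC7A11 (chr4:138164097-138242349, minus strand) was at 66.0 and 62.6 CPM in the control libraries and at 78.2 and 58.0 CPM in the DKO libraries. The DKO values of SLC7A11 lay on either side of the control values. Its log2 fold change was 0.08 (SE 0.20, 95% interval -0.35 to 0.52, edgeR adjusted p = 0.870) and turned to -0.14 without DKO replicate 1. SLC7A11 has the most TATTTAT heptamers of the 10 genes.

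Of the sodium-dependent neutral exchangers, SLC1A5 (chr19:46774883-46788594, minus strand) was at 269 and 327 CPM in the control libraries and at 328 and 446 CPM in the DKO libraries. The lower DKO library exceeded the higher control library by less than the distance between libraries of either clone. The log2 fold change of SLC1A5 was 0.38 (SE 0.21, 95% interval -0.08 to 0.83, edgeR adjusted p = 0.346). It ran from 0.13 without DKO replicate 2 to 0.59 without DKO replicate 1. Its paralogue SLC1A4 (chr2:64988477-65023865, plus strand) was at 44.9 and 46.6 CPM in the control libraries and at 49.0 and 59.3 CPM in the DKO libraries. The control libraries of SLC1A4 were nearly equal, and only DKO replicate 2 stood clearly above them. Its log2 fold change was 0.25 (SE 0.20, 95% interval -0.17 to 0.66, edgeR adjusted p = 0.523), and 0.10 without DKO replicate 2.

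The uniporter SLC43A1 (chr11:57484534-57515786, minus strand) was at 148 and 171 CPM in the control libraries and at 191 and 210.0 CPM in the DKO libraries. The clones did not overlap, and the log2 fold change was 0.33 (SE 0.19, 95% interval -0.07 to 0.74, edgeR adjusted p = 0.352), between 0.23 and 0.43 in the fits without 1 library. The glycine transporter SLC6A9 (chr1:43991500-44031467, minus strand) had the lowest level, at 11.7 and 13.4 CPM in the control libraries and at 11.4 and 14.3 CPM in the DKO libraries, from 116 to 231 counts. The DKO libraries of SLC6A9 enclosed the control libraries. Its log2 fold change was 0.04 (SE 0.24, 95% interval -0.48 to 0.55, edgeR adjusted p = 0.953) and its sign depended on the library left out (-0.15 to 0.19). SLC6A9 shares 404 exonic bases with CCDC24 on the opposite strand, which had 17 to 36 counts, and SLC1A5 shares 780 with the antisense gene AC008622.2, which had 3 to 10 counts. No source used here gives the strand setting of the counting, so reads of these pairs may not have been kept apart. SLC7A11-AS1, which overlaps SLC7A11 on the opposite strand, had at most 1 count.

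**Figure D2:**
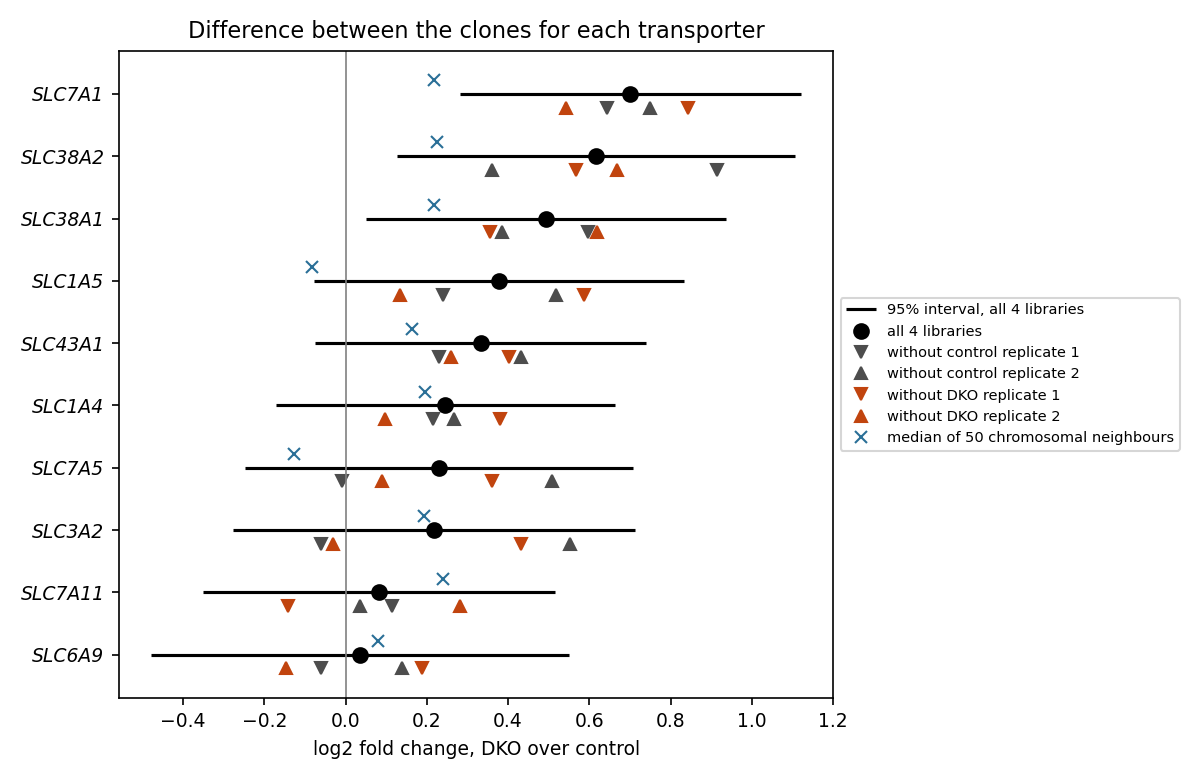
Log2 fold change, DKO over control (horizontal axis), of each transporter with all 4 libraries (black circle, line for the 95% interval), in the fits without 1 library (triangles) and the median of its 50 tested chromosomal neighbours (cross). The intervals of SLC7A1, SLC38A2 and SLC38A1 lie above 0, and triangles of SLC7A5, SLC3A2, SLC7A11 and SLC6A9 fall on both sides of 0.

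Genes next to the transporters on their chromosomes were compared in the same way. The 25 tested genes on each side of SLC7A1 had a median log2 fold change of 0.22, with 34 of 50 above 0. For SLC38A1 and SLC38A2, which share nearly all neighbours, the medians were 0.22 and 0.23. Those around SLC7A11, SLC1A4, SLC3A2 and SLC43A1 were 0.24, 0.20, 0.19 and 0.16, that around SLC6A9 was 0.08, and those around SLC7A5 and SLC1A5 were -0.13 and -0.08. Neighbours of 8 of the 10 transporters thus had a median above that of all genes, and the part of these shifts in the values of the transporters was not tested. The values of SLC7A11 and SLC6A9 lay below their neighbour medians, and those of the other transporters lay above. The spread among the neighbours was not taken into account, so no difference from them was tested.

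Levels of different transporters were compared per kilobase of exon, with the exons of all annotated transcripts joined. Joined exons can be longer than the mRNA that is made, so the order of the genes depends on the annotation. They came to 5178 bases for SLC3A2, whose longest 3′ UTR had 182 bases. For SLC7A5 they came to 4745 bases, with a longest 3′ UTR of 2947 bases. In the control clone SLC7A5 was highest at 95.8 ± 24.2 CPM per kb (SD, n = 2), followed by SLC1A5 at 89.4 ± 12.3 and SLC38A2 at 80.2 ± 21.4 CPM per kb, and the libraries of these 3 genes overlapped. SLC43A1 at 45.1 ± 4.54, SLC3A2 at 41.6 ± 12.4 and SLC38A1 at 41.2 ± 4.25 CPM per kb formed the next level, again without a difference beyond their spread. SLC7A1 at 6.71 ± 0.358, SLC7A11 at 6.66 ± 0.252 and SLC1A4 at 6.59 ± 0.176 CPM per kb were close to each other, and SLC6A9 was lowest at 2.43 ± 0.243 CPM per kb. In the DKO clone SLC38A2 came first at 123 ± 6.58 CPM per kb, with libraries that overlapped those of SLC1A5 and SLC7A5. There SLC7A1, at 10.9 ± 1.56 CPM per kb, lay above SLC1A4 at 7.81 ± 1.05 and SLC7A11 at 7.06 ± 1.48 CPM per kb in both libraries. In the control clone the libraries of SLC7A1 overlapped those of SLC1A4 and SLC7A11.

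**Figure D3:**
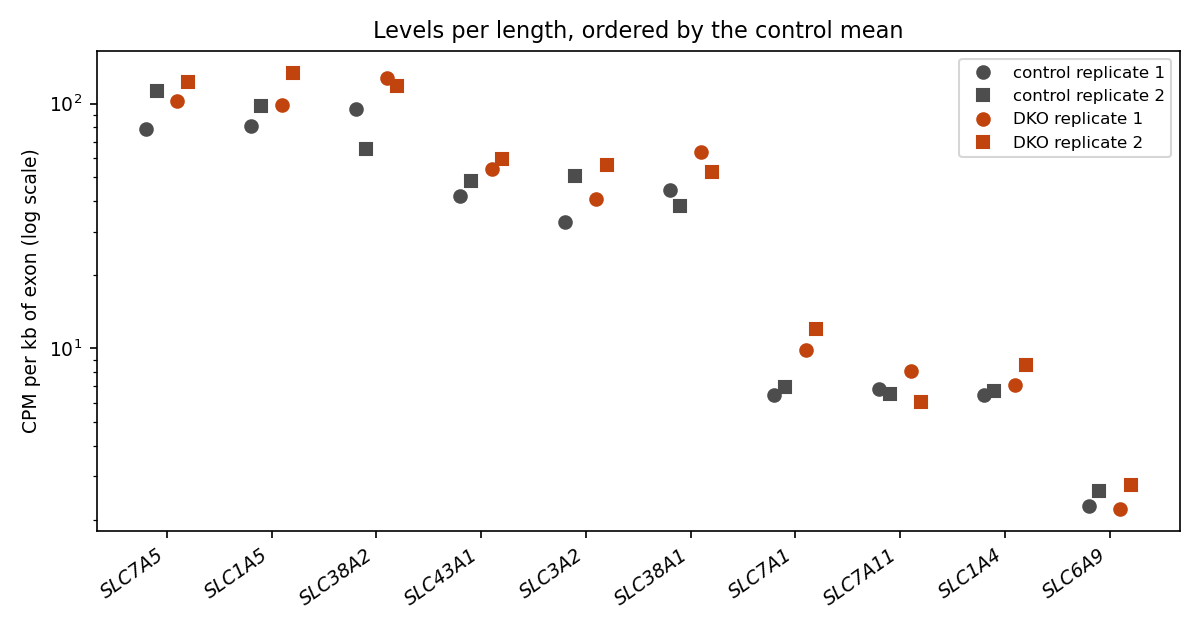
Level per kilobase of exon (vertical axis, CPM per kb, log scale) of the 10 transporters in each library, ordered by the control mean. SLC7A5, SLC1A5 and SLC38A2 are near the top, SLC7A1, SLC7A11 and SLC1A4 lie between 6.46 and 6.97 CPM per kb in the control libraries, and SLC6A9 is lowest at 2.43 CPM per kb.

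Ratios between transporters within a library do not depend on how the libraries are scaled. Their size does depend on the joined exon lengths, which are the same in all libraries, so only the comparison between libraries is read here. The light chain SLC7A5 and the heavy chain SLC3A2 stood at a ratio of levels per kilobase of 2.39 and 2.24 in the control clone and of 2.501 and 2.19 in the DKO clone. The DKO values of this ratio lay on either side of the control values, and it varied less between the libraries of a clone than either mRNA did. SLC7A11 over SLC3A2 was 0.208 and 0.129 in the control clone against 0.199 and 0.107 in the DKO clone, so that it was lower in replicate 2 of each clone and overlapped between the clones. SLC1A5 over SLC1A4 was 12.5 and 14.6 in the control clone against 13.9 and 15.7 in the DKO clone. SLC38A2 over SLC38A1 was 2.16 and 1.71 against 2.01 and 2.25, and SLC7A5 over SLC43A1 was 1.88 and 2.34 against 1.89 and 2.06. The libraries of the clones overlapped in each of these 5 ratios.

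**Figure D4:**
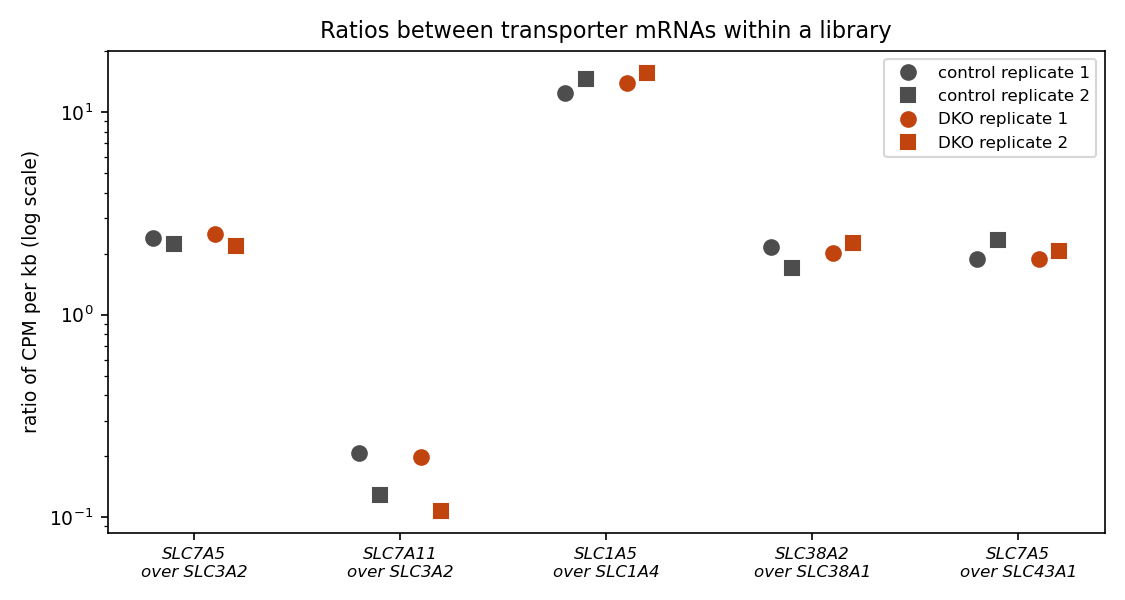
Ratio of levels per kilobase between pairs of transporter mRNAs (vertical axis, log scale) in each library. SLC7A5 over SLC3A2 lies between 2.19 and 2.501 in all 4 libraries, and SLC7A11 over SLC3A2 is lower in replicate 2 of each clone.

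The 5 transporters with a TATTTAT heptamer in the 3′ UTR had a median log2 fold change of 0.49 (0.08 to 0.70), and the 5 without had a median of 0.25 (0.04 to 0.38). The ranges overlapped, and the gene with the most heptamers, SLC7A11, had the lowest value of the former group. Over all tested genes the medians were 0.04 with a heptamer (n = 4293) and -0.03 without (n = 7592), and the 3′ UTRs of the former were longer, with a median of 2649 against 956 bases. Among the 10, the 3′ UTRs with a heptamer had 2922 (SLC38A2) to 7859 bases (SLC7A11). Those without had 182 (SLC3A2) to 2719 bases (SLC1A4), so heptamer and length cannot be told apart here.

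Other transporters of amino acids at the plasma membrane and lysosome included genes that rose and genes that fell. The test called 1 of 28 higher and 4 lower, and 23 did not pass, with a median of -0.08. Of all genes tested it called 2.24% higher and 3.14% lower. Before adjustment 4 of the 28 were higher and 6 lower at an edgeR p under 0.05, against 9.57% and 10.6% of all genes. SLC6A14, an importer of neutral and cationic amino acids, rose from 13.7 and 14.3 CPM in the control libraries to 56.1 and 55.7 CPM in the DKO libraries (log2 fold change 2.00, SE 0.21, edgeR adjusted p = 4.85e-05), and passed in each of the 4 fits without 1 library. With spike-in totals SLC6A14 was at 1.32 and did not pass. The glutamate and cysteine transporter SLC1A1 fell from 4.36 ± 0.753 to 1.18 ± 0.168 CPM (-1.86, edgeR adjusted p = 0.00922). SLC7A7, a light chain that joins SLC3A2 and exports cationic amino acids, fell from 19.9 ± 0.985 to 9.91 ± 0.508 CPM (-1.004, edgeR adjusted p = 0.0199). The neutral amino acid importer of gut and kidney SLC6A19 fell from 8.61 ± 0.199 to 4.07 ± 0.0222 CPM (-1.08, edgeR adjusted p = 0.0321). The taurine transporter SLC6A6 fell from 236 ± 6.76 to 132 ± 6.39 CPM (-0.84, edgeR adjusted p = 0.0185). None of these 4 passed without DKO replicate 1 or without DKO replicate 2, in fits that called 1.68% and 1.61% of all genes. Their values there stayed near those with all libraries, at -1.74 and -2.03 for SLC1A1, -0.95 and -1.06 for SLC7A7, -1.07 and -1.09 for SLC6A19, and -0.88 and -0.79 for SLC6A6. With spike-in totals SLC6A6 was at -1.51 (edgeR adjusted p = 0.106) and SLC7A7 at -1.70 (edgeR adjusted p = 0.0541), and with DESeq2 SLC6A19 was at -1.08 (adjusted p = 0.0577).

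Some relatives of the 10 genes were looked at after their values were seen. SLC7A6, another light chain of SLC3A2 and a carrier of cationic amino acids, was at 0.50 on the log2 scale (SE 0.19, edgeR adjusted p = 0.141), with no overlap between the clones. SLC7A8 was at -0.94 (SE 0.51, edgeR adjusted p = 0.317) from 6 to 16 counts, with both DKO libraries below the control libraries, and SLC7A10 at -0.16 (SE 0.21, edgeR adjusted p = 0.730). The cationic carrier SLC7A2, a relative of SLC7A1 that is typical of liver, was at 242 ± 50.3 CPM in the control and 322 ± 34.8 CPM in the DKO libraries (0.41, edgeR adjusted p = 0.280).

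Carriers of amino acids in the mitochondrial membrane gave no call in 11 tested, with 4 above 0 and a median of -0.20. The glycine carrier SLC25A38 was at 53.2 ± 7.29 and 32.8 ± 2.94 CPM (-0.70, edgeR adjusted p = 0.0575), and SLC25A12, an aspartate and glutamate carrier, at 0.405 ± 0.00343 and 1.45 ± 0.139 CPM from 4 to 25 counts (1.82, edgeR adjusted p = 0.0584). SFXN3, of the sideroflexin family, was at -0.46 (edgeR adjusted p = 0.342). Before adjustment 1 carrier was higher and 1 lower at an edgeR p under 0.05, against 9.57% and 10.6% of all genes. DESeq2 called 1 carrier while limma-voom called 0.

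Genes by which mTORC1, the growth-controlling kinase complex, senses amino acids gave no call in 35 tested, with 17 above 0 and a median of -0.02. The sestrin gene SESN3 was at 41.0 ± 11.8 and 74.6 ± 21.4 CPM (0.86, edgeR adjusted p = 0.0519). WDR59, a subunit of the GATOR complex, was at -0.63 (edgeR adjusted p = 0.0815), and the Rag GTPase gene RRAGC at 0.72 (edgeR adjusted p = 0.111). Before adjustment 2 genes were higher and 3 lower at an edgeR p under 0.05, against 9.57% and 10.6% of all genes. DESeq2 called 1 of the 35 while limma-voom called 0. Without control replicate 1, 6 of the 35 were called, 3 in each direction, in a fit that called 15.6% of all genes.

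The GCN2 pathway and the amino acid response also gave no call in 20 tested, with 13 above 0 and a median of 0.16. GCN1, the activator of GCN2, was at 506 ± 146 and 309 ± 13.6 CPM (-0.71, edgeR adjusted p = 0.0794). PPP1R15A was at 78.8 ± 21.5 and 129 ± 28.9 CPM (0.71, edgeR adjusted p = 0.0851), and the pseudokinase gene TRIB3 at 83.6 ± 25.6 and 138 ± 38.2 CPM (0.72, edgeR adjusted p = 0.101). ATF4 itself, chosen here for its role, was at 248 ± 99.1 and 250.01 ± 33.3 CPM (0.01, edgeR adjusted p = 0.984). Before adjustment 4 genes were higher and 2 lower at an edgeR p under 0.05, against 9.57% and 10.6% of all genes. DESeq2 called 1 of the 20 (lower) while limma-voom called 0. Without control replicate 2, 4 of the 20 were called, all higher, in a fit that called 5.35% of all genes, and without control replicate 1, 2 were called, both lower, where 15.6% of all genes were.

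Among enzymes that use cystine, glutamine and glycine, 1 of 21 tested fell and 0 rose, where 3.14% of all genes were called lower and 2.24% higher. Values ran from -1.74 to 0.40, with a median of -0.0045. Before adjustment 3 were lower and 0 higher at an edgeR p under 0.05, against 10.6% and 9.57% of all genes. These 3 were GGT1, CDO1 (-0.91), which oxidises cysteine, and AMT (-0.74), of the glycine cleavage system, the latter 2 named after their values were seen. The gene that fell was GGT1, the gamma-glutamyltransferase that cleaves glutathione outside the cell, from 17.6 ± 3.50 to 5.23 ± 0.570 CPM (-1.74, SE 0.26, edgeR adjusted p = 0.00145). GGT1 belongs to a family of near-identical copies, among which its reads could be split or lost. It passed in each of the 4 fits without 1 library.

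**Figure D5:**
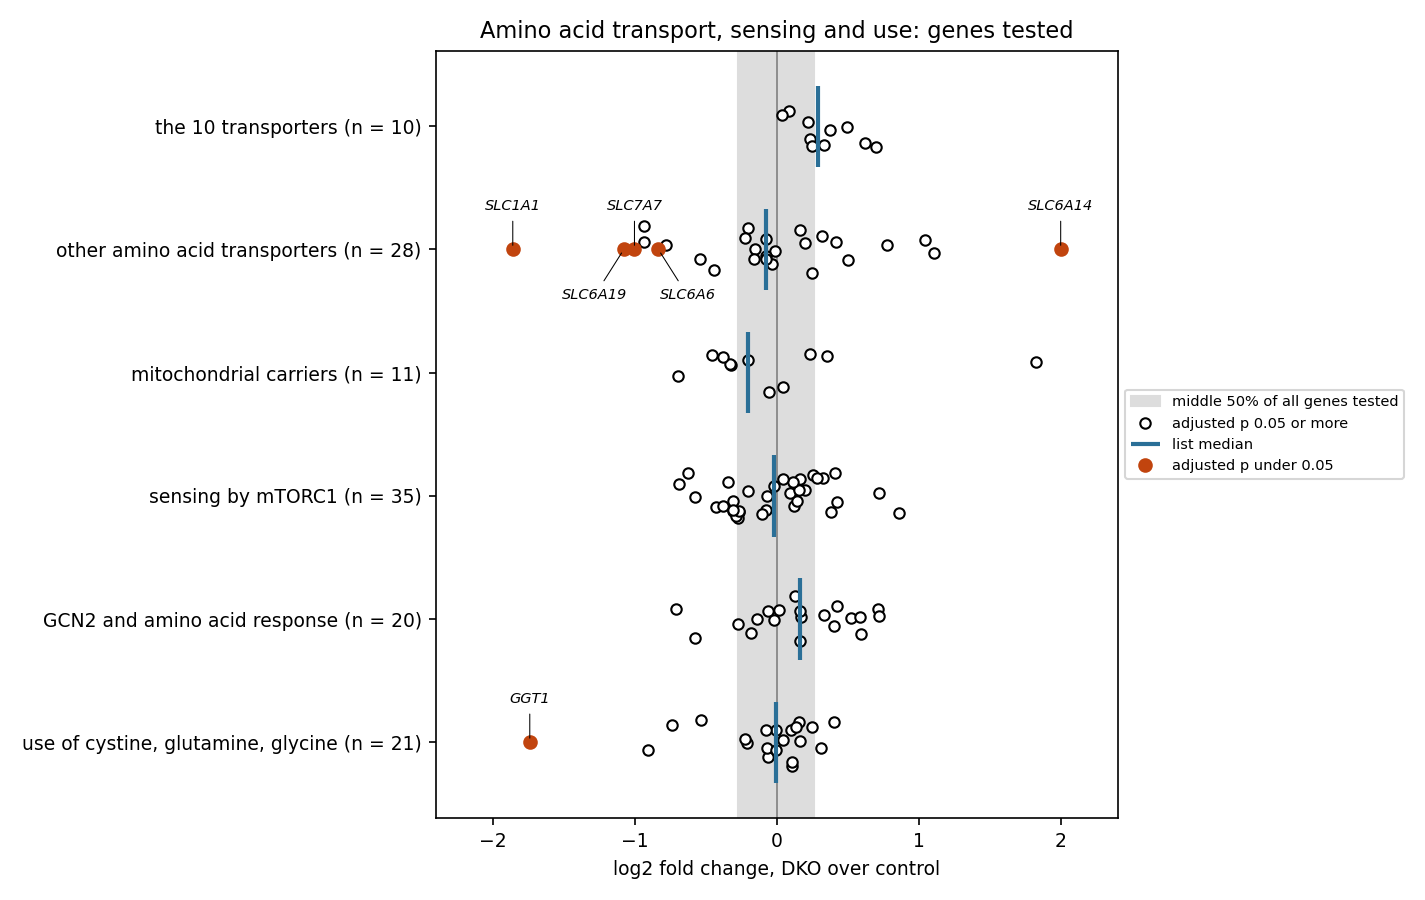
Log2 fold change, DKO over control (horizontal axis), of the 10 transporters and of the tested genes of 5 related lists, with list medians (blue lines) and the middle 50% of all genes tested (grey band, -0.27 to 0.26). Orange points passed the edgeR test and are named, and all 10 transporters are open points between 0.037 and 0.70.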

How the data were processed

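RNA sequencing of total RNA gave 4 libraries, 2 per clone. Per the labels' protocols, 1 µg of RNA received ERCC spike-ins, ribosomal RNA was depleted, the library kit kept the strand, and single reads had 80 bases. The authors deposited 1 table of raw counts per gene. The submitters' processing notes name hg38, STAR 2.5.3a, featureCounts, Subread 1.6.3 and DESeq2. Which annotation was counted, with which strand setting, and how multiply aligned reads were treated is not stated there. The 92 spike-in rows stayed out of library sizes and tests. In R 4.3.3, edgeR 4.0.16 (filterByExpr, TMM, quasi-likelihood test, group as the only term) was fitted to all genes, and the fit was tested on simulated data. The simulated libraries were drawn independently, with the spread that the fit itself had estimated. They thus cannot check the effect of deviations that same-numbered libraries share. SE is the log2 fold change divided by the root of its F statistic. Positions, exon lengths and 3′ UTRs come from GENCODE release 29 (40718 of 42169 gene rows matched 1 gene, all 10 transporters among them), and promoter windows from RefSeq. Libraries of a clone differed beyond sampling noise (chi-square per degree of freedom 33.6 and 27.1). Reads carried no molecular identifiers, so the counting floor of 3 counts covers counting error only.

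The transporters, the 5 related lists and the tests were chosen with earlier results of these data known. Named genes are the 10 transporters, genes that overlap them, and of each list every gene past the threshold or else the 3 of smallest adjusted p. Genes named outside this rule are said to be so. Alternatives were DESeq2 1.42.0, limma-voom (limma 3.58.1), RLE factors, spike-in totals, no filter, a replicate block and leaving out each library. Protein sequences were not used here.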

Additional observations from a re-analysis of the deposited data

How the results depend on the processing

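The number of the 10 transporters past the threshold was 0 with all 4 libraries and also with limma-voom, RLE factors and spike-in totals. It was 1 with DESeq2 (5.18% of all genes called) and 1 without a filter (5.39%), SLC7A1 in both. In the fits without 1 library the median log2 fold change of the 10 ran from 0.20 to 0.41. In those fits the clone left with 1 library is assumed to vary like the other. The labels give same-numbered libraries no shared day or culture, and with 2 numbers the pairing could not be established, although deviations of same-numbered libraries correlated at 0.541 over 13359 genes. With the replicate number as a block, 5 of the 10 passed, all higher (SLC7A1, SLC38A2, SLC38A1, SLC1A5 and SLC43A1). That fit called 30.1% of all genes, 4021 in all, 1998 higher and 2023 lower. The block also moved the counts to 12 of 28 for other transporters, 3 of 11 for mitochondrial carriers and 9 of 35 for sensing by mTORC1. The count was 9 of 20 for the GCN2 pathway and 4 of 21 for the use of cystine, glutamine and glycine. Beside these stands the same 30.1% of all genes. Over all genes 718 passed, against 335 with spike-in totals, 1194 without a filter and 218 to 2172 in the fits without 1 library (218 without DKO replicate 2, 235 without DKO replicate 1, 727 without control replicate 2 and 2172 without control replicate 1). These counts come from different numbers of genes tested. Without a filter 22155 genes were tested, against 13359 with it, so the share that passed was nearly the same (5.39% against 5.37%). With spike-in totals it was 2.53% of 13248 genes, and 2 other transporters passed in place of 5. DESeq2 called 1 mitochondrial carrier, 1 gene of mTORC1 sensing and 1 of the GCN2 pathway, where it called 5.18% of all genes. In the same lists 2, 2 and 3 passed without a filter, where 5.39% of all genes did. In the fits without 1 library the counts ran from 1 to 7 for other transporters, 0 to 1 for mitochondrial carriers, 0 to 6 for mTORC1 sensing, 0 to 4 for the GCN2 pathway and 1 to 2 for the use of cystine, glutamine and glycine. Values turned negative with spike-in totals for SLC7A1 (-0.0098), SLC7A5 (-0.52), SLC7A11 (-0.56), SLC3A2 (-0.55), SLC1A4 (-0.46), SLC1A5 (-0.36), SLC38A1 (-0.15), SLC6A9 (-0.69), SLC43A1 (-0.38), PPP1R15A (-0.052) and TRIB3 (-0.058), where the median gene was at -0.68. They also turned negative without control replicate 1 for SLC7A5 (-0.0097), SLC3A2 (-0.061) and SLC6A9 (-0.061), without DKO replicate 1 for SLC7A11 (-0.14), and without DKO replicate 2 for SLC3A2 (-0.03) and SLC6A9 (-0.15). Over the fits without 1 library the values ran up to 0.51 for SLC7A5, 0.28 for SLC7A11, 0.55 for SLC3A2 and 0.19 for SLC6A9. The cause was not tested. At 116 to 231 counts per library SLC6A9 was the least deeply measured of the 10.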

Other observations

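ASNS, the asparagine synthetase gene and a textbook target of the amino acid response, had 3 and 9 counts in the control clone against 4 and 6 in the DKO clone, and was not tested. Which annotation the counts were made with is not stated, so these few counts do not show that ASNS was hardly expressed. The transporters SLC7A5 and SLC38A2, known targets of the same response, had at least 3712 and 5276 counts in every library. Why ASNS had so few counts was not tested, and the counts of these 2 genes do not settle it. NUPR1, another gene of that list, was at 0.496 ± 0.0101 and 0.251 ± 0.0823 CPM (SD, n = 2) and was not tested either. Of the 45 other transporter genes in the table, 12 had no count in any library.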
